A study of Mus musculus with 12 samples.

Results

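Skin steroid enzymes and steroid receptors were examined as a set of 9 named genes, Hsd3b1, Hsd3b6, Hsd11b1, Hsd17b2, Srd5a1, Srd5a2, Sts, Nr3c1 and Nr3c2, chosen by symbol from a table of 21247 genes. The table held 8 of the 9 and no row for Sts, the steroid sulfatase gene, which was not analysed here. Of the 8 genes, 7 had enough counts to be tested among 20454 tested genes, and Hsd3b1 did not. The measurements were RNA-seq read counts from periocular (eye-skin) biopsies of 6-week-old BALB/c mice. One group was ft/ft mice, which lack working filaggrin, an epidermal protein that binds keratin filaments, because of a point mutation that arose spontaneously. The ma mutation of the original strain had been removed from them. The other group was ft/ftMyD88-/- mice, ft/ft mice crossed in-house with mice that lack MyD88, the adaptor of IL-1 family and most Toll-like receptors. Each group had 4 libraries, with 15802957 to 29255129 counts per library, and both groups carried the filaggrin mutation. The study compared them to learn what MyD88 does in filaggrin-deficient skin, but here the groups also differed in sex transcripts, as given below. The 4 WT samples named in the labels were not analysed here. The libraries of a group came from separate mice, as the study describes them.

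Skin makes and inactivates steroids locally. Cholesterol is cut and oxidised to progestogens, androgens, oestrogens and glucocorticoids by cytochrome P450 enzymes and hydroxysteroid dehydrogenases, with the sebaceous gland as a main site of androgen metabolism. A cell's response then depends both on the enzymes that activate or inactivate a hormone at the tissue and on the nuclear receptors that bind it.

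The labels and the counts did not match in every respect. Myd88 counts were not lower in the libraries labelled ft/ftMyD88-/- (41.2 ± 7.29 CPM, counts per 1000000 after scaling, SD, n = 4) than in those labelled ft/ft (30.7 ± 4.74, n = 4). Its log2 fold change was 0.42 (SE 0.142, edgeR adjusted p = 0.0484), and counts over a whole gene do not show which exons were read. Tmem79, the gene altered by the ma mutation, was at 59.2 ± 2.92 CPM in ft/ft and 16.4 ± 2.10 CPM in ft/ftMyD88-/- (SD, n = 4 each). Xist, expressed from the inactive X chromosome of female cells, had 1 count in all ft/ft libraries against 34.6 to 66.8 CPM in the ft/ftMyD88-/- libraries. The Y-linked Ddx3y was at 54.2 to 73.2 CPM in ft/ft and at most 0.482 CPM in ft/ftMyD88-/-, although the mice are described as female. Sex transcripts and genotype therefore cannot be told apart for any difference given here. Markers of skin were present in every library. Markers counted below as risen or fallen passed an edgeR adjusted p of 0.05. Of all tested genes, 10.9% did so higher and 12.3% lower in ft/ftMyD88-/-. Basal keratinocyte markers summed to 9533 to 12226 CPM in ft/ft and 8000 to 9848 CPM in ft/ftMyD88-/-, and 3 of 5 fell. Differentiated keratinocyte markers summed to 16251 to 21266 CPM in ft/ft and 11613 to 14318 CPM in ft/ftMyD88-/-, and 4 of 6 fell. The groups differed in marker levels of several cell types. The summed level of 13 sebocyte markers was 22314 to 24894 CPM in ft/ft and 13725 to 19900 CPM in ft/ftMyD88-/-, and 9 of the 13 fell. Scd1 held the largest part (mean 13795 CPM in ft/ft and 8763 CPM in ft/ftMyD88-/-), so the sum and ratios to it mostly follow Scd1. Elovl3 (log2 fold change 0.18), Soat1 (−0.09), Krt79 (−0.01) and Pparg (−0.33) did not pass. Fibroblast markers summed to 14283 to 29383 CPM and 7198 to 10677 CPM, and 3 of 7 fell. Those 3 were the collagen genes Col1a1, Col1a2 and Col3a1, the highest of the list, so the sum and ratios to it mostly follow collagen RNA. Dcn (log2 fold change −0.40), Lum (0.09), Pdgfra (0.31) and Dpt (0.39) did not pass. Skeletal muscle markers summed to 7680 to 10591 CPM and 3006 to 5788 CPM, and 6 of 7 fell. Leukocyte markers summed to 101 to 126 CPM and 113 to 150 CPM, and 5 of 8 rose. Endothelial markers summed to 197 to 243 CPM and 146 to 195 CPM, and 1 of 5 fell. Ratios to sebocyte and fibroblast markers are given with the genes. Both sums were lower in ft/ftMyD88-/-, so dividing by them moves the log2 difference of every gene upward by much the same amount. A larger rise or a turned direction relative to markers is therefore not a separate result for a gene. The part of the keratinocyte, muscle, leukocyte and endothelial markers in the results was not tested. No listed marker of these cell types was at 0 counts in all libraries. In whole biopsies, fewer cells of a type and less RNA per cell cannot be told apart.

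Of the 7 tested genes, Hsd3b6, Srd5a1, Nr3c1 and Nr3c2 fell in ft/ftMyD88-/- skin, Hsd11b1 and Srd5a2 rose, and Hsd17b2 did not pass the test. Thus 6 of 7 passed an adjusted p of 0.05, where 23.3% of all tested genes did so, 10.9% higher and 12.3% lower. Srd5a2 passed the filter on low counts only through the group where it was higher, and without it 5 of 6 passed. The median log2 fold change of the 7 genes was −0.41, and that of all tested genes was 0.013. CPM values of 5 of the 7 did not overlap between the groups, against 26.7% of all tested genes. For Srd5a2, 1 of the 5, the nearest libraries each had a single count. Hsd3b1 and Hsd3b6 are among genes the study displayed on the basis of these same libraries. The direction of Hsd3b6 is therefore not independent evidence, and Hsd3b1 was not tested.

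**Figure D1:**
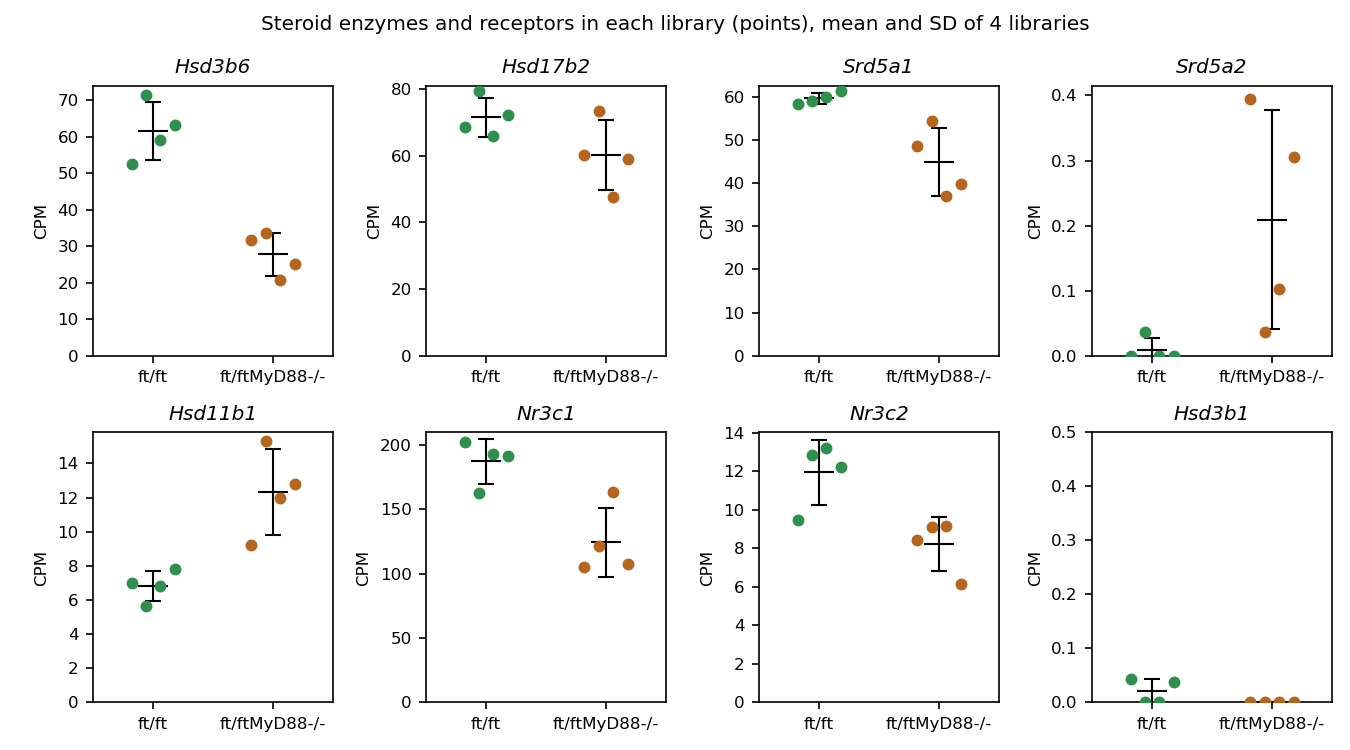
CPM (vertical axes, starting at 0) of the 8 genes in each of the 4 ft/ft (green) and 4 ft/ftMyD88-/- (brown) libraries, with the mean and SD in black. Hsd3b6, Srd5a1 and Nr3c2 were lower in every ft/ftMyD88-/- library than in any ft/ft library and Hsd11b1 was higher, while Srd5a2 and Hsd3b1 stayed below 0.5 CPM.

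The 3β-hydroxysteroid dehydrogenases convert pregnenolone to progesterone and dehydroepiandrosterone to androstenedione, a step that all active steroid hormones pass through. Hsd3b6 and Hsd3b1 lie on the minus strand of chromosome 3 (GRCm38) at chr3:98805504-98814443 and chr3:98852194-98859794, within a cluster of near copies. Their coding sequences were identical at 1007 of 1119 bases (90.0%), and Hsd3b6 was 94.5% and 94.4% identical to Hsd3b3 and Hsd3b2. The stretch below, bases 94 to 153 of the coding sequence, is the 60-base window where Hsd3b6 and Hsd3b1 differ most, with the 15 differing bases in capitals, and it shows what tells their reads apart.
Hsd3b6: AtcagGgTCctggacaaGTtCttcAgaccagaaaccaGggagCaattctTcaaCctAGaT
Hsd3b1: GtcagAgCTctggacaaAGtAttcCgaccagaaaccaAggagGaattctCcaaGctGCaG
Elsewhere the 2 genes were identical over runs of up to 72 bases, longer than the 50-base reads of the study's methods. Of the 50-base words in Hsd3b6 transcripts, 15.7% also occur in another gene, mostly of the same cluster. A read from such a word cannot be assigned to 1 copy, and the counts of Hsd3b6 and Hsd3b1 carry that uncertainty. Hsd3b2 and Hsd3b3 had no row of their own, so whether Hsd3b6 took up their reads cannot be checked here.

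Hsd3b6 had the smallest adjusted p of the 7 tested genes. Its counts were 1224, 1962, 1059 and 1650 in replicates 1 to 4 of ft/ft and 721, 915, 610 and 414 in ft/ftMyD88-/- replicates 1 to 4. Scaled to library size, these were 52.5, 71.4, 59.1 and 63.3 CPM against 31.6, 33.6, 20.8 and 25.2 CPM. Every ft/ftMyD88-/- library was below every ft/ft library. The means were 61.5 ± 7.91 CPM and 27.8 ± 5.90 CPM (SD, n = 4 each), and the log2 fold change was −1.15 (SE 0.149, 95% interval −1.47 to −0.82, edgeR adjusted p = 0.000431). Per 1000 CPM of summed sebocyte markers, it ranged from 2.35 to 2.90 CPM in ft/ft and from 1.33 to 1.84 CPM in ft/ftMyD88-/-, with no overlap (log2 difference −0.64, exact two-sided permutation p = 0.0286, the smallest that 4 against 4 allows, and 0.0857 adjusted over 12 such ratios). Per 1000 CPM of fibroblast markers, the ranges of 2.01 to 3.90 and 2.08 to 4.39 overlapped (log2 difference −0.02, exact two-sided permutation p = 0.914). Hsd3b1, by contrast, was at or near 0 throughout. It had 1 count in each of ft/ft replicates 1 and 4, 0 in the other ft/ft libraries and no count in any ft/ftMyD88-/- library, below the 3 counts (0.102 to 0.183 CPM) that a count of 0 allows, so no difference was detectable at this depth.

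The 3 genes whose levels over the 8 libraries were most like that of Hsd3b6 were Acaa1b (Pearson r = 0.992), Scd4 (0.992) and Apol7a (0.991), out of 11936 genes compared. Acaa1b is a peroxisomal thiolase of fatty acid oxidation and Scd4 a stearoyl-CoA desaturase. Their log2 fold changes were −1.18, −1.14 and −1.08. The points share libraries, depth and tissue makeup.

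Promoter sequences from RefSeq (GRCm38.p6, 300 bases spanning a RefSeq start) matched 6 of the 9 genes. Gene spans given here come from GENCODE. The windows of Hsd11b1 and Nr3c2 (chr8:76902080-76902379) lie inside those spans, away from the outermost start of each gene. The promoters of the expressed Hsd3b6, at chr3:98814394-98814693, and of the near-silent Hsd3b1, at chr3:98859745-98860044, are printed to show how far they differ for genes with 90.0% coding identity, and that of Hsd11b1, at chr1:193242311-193242610, because its gene rose. All are given 5′ to 3′ on the minus strand. Capitals mark TGTTCT or its reverse complement AGAACA, the core letters bound by the glucocorticoid and mineralocorticoid receptors.
Hsd3b6: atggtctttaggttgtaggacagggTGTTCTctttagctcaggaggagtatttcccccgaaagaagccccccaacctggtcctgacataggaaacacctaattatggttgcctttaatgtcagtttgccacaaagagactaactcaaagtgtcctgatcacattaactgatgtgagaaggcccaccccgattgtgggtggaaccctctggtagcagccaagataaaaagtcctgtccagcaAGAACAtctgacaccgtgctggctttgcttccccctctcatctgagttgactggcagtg
Hsd3b1: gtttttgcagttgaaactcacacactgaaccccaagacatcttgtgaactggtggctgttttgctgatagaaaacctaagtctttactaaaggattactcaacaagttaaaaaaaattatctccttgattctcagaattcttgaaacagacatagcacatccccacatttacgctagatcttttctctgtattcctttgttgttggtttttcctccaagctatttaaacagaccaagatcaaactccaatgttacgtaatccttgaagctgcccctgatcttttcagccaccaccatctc
Hsd11b1: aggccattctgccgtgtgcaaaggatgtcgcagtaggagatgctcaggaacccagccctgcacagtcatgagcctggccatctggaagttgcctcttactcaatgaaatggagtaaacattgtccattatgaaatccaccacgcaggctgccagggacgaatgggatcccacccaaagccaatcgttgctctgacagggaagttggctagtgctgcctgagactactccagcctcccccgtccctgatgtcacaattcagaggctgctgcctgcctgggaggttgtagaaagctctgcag
Hsd3b6 had 2 matches to these letters and the other 5 promoters (Hsd3b1, Hsd11b1, Srd5a1, Srd5a2 and Nr3c2) none, where 19.0% of 27025 promoters of the same length hold the letters. CCAAT, on either strand, occurred in the promoters of Hsd3b1 (1 match), Hsd11b1 (1), Srd5a1 (2) and Nr3c2 (3), and in 37.9% of all promoters. GGGCGG occurred in the promoters of Srd5a1 (4 matches), Srd5a2 (2) and Nr3c2 (3), and in 35.9% of all promoters. TATAAA, present in 14.2% of all promoters, matched none of the 6. A match describes letters in this window and not a bound site.

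Hsd11b1 encodes the reductase that regenerates active corticosterone from inactive 11-dehydrocorticosterone inside cells. The gene spans chr1:193221634-193264075 on the minus strand. Its counts were 163, 155, 122 and 204 in ft/ft replicates 1 to 4 and 211, 417, 352 and 210 in ft/ftMyD88-/- replicates 1 to 4. These were 6.99, 5.64, 6.81 and 7.82 CPM against 9.25, 15.3, 11.98 and 12.8 CPM. All ft/ftMyD88-/- libraries were above all ft/ft libraries. The means were 6.81 ± 0.900 and 12.3 ± 2.50 CPM (SD, n = 4 each), and the log2 fold change was 0.86 (SE 0.163, 95% interval 0.50 to 1.21, edgeR adjusted p = 0.00323). The log2 difference was larger relative to summed markers than in CPM, as it must be where both sums were lower in ft/ftMyD88-/-. Per 1000 CPM of fibroblast markers, Hsd11b1 ranged from 0.232 to 0.489 CPM in ft/ft and from 1.20 to 1.51 CPM in ft/ftMyD88-/- (log2 difference 1.98, exact two-sided permutation p = 0.0286, 0.0857 adjusted over the 12 ratios). Per 1000 CPM of sebocyte markers the log2 difference was 1.37 with the same p. The most similar profiles were those of Ostm1 (r = 0.985), Thap7 (0.982) and Dnajc3 (0.981), whose own log2 fold changes were between 0.19 and 0.34.

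Hsd17b2 encodes the dehydrogenase that inactivates oestradiol and testosterone. It lies at chr8:117701904-117759027 on the plus strand. The ft/ft libraries gave 1604, 2181, 1180 and 1880 counts, and those of ft/ftMyD88-/- 1377, 1996, 1400 and 970 (replicates 1 to 4 in order), or 68.8, 79.3, 65.8 and 72.1 CPM against 60.3, 73.3, 47.6 and 59.1 CPM. Replicate 2 of ft/ftMyD88-/- lay within the ft/ft range and the other 3 below it. With means of 71.5 ± 5.81 and 60.1 ± 10.5 CPM (SD, n = 4 each), the log2 fold change was −0.25 (SE 0.120, 95% interval −0.51 to 0.01, edgeR adjusted p = 0.151). The interval still includes a fall of 0.51 on the log2 scale. Without replicate 2 of ft/ftMyD88-/- the edgeR adjusted p was 0.0481. Relative to summed markers the log2 difference was positive, at 0.26 for sebocyte and 0.88 for fibroblast markers (exact permutation p = 0.0857 and 0.0571). The lower marker sums of ft/ftMyD88-/- alone can give this sign. Genes with the most similar profiles were Sgf29 (r = 0.968), RP24-372I24.4 (0.963) and Mpdu1 (0.955).

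The ratio of Hsd11b1 to Hsd17b2 counts within a library does not depend on scaling between libraries. It sets an enzyme that activates glucocorticoids beside one that inactivates sex steroids. The ratio was 0.0711 to 0.109 in ft/ft and 0.153 to 0.251 in ft/ftMyD88-/-. On the log2 scale, the means were −3.39 ± 0.281 and −2.29 ± 0.299 (SD, n = 4 each), a difference of 1.10 (exact two-sided permutation p = 0.0286, 0.0429 adjusted over 3 ratios). The adjusted value depends on the Srd5a1 to Srd5a2 ratio, which had the same p and is given below only as a description. Without that ratio in the adjustment, the adjusted value would not be under 0.05.

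**Figure D2:**
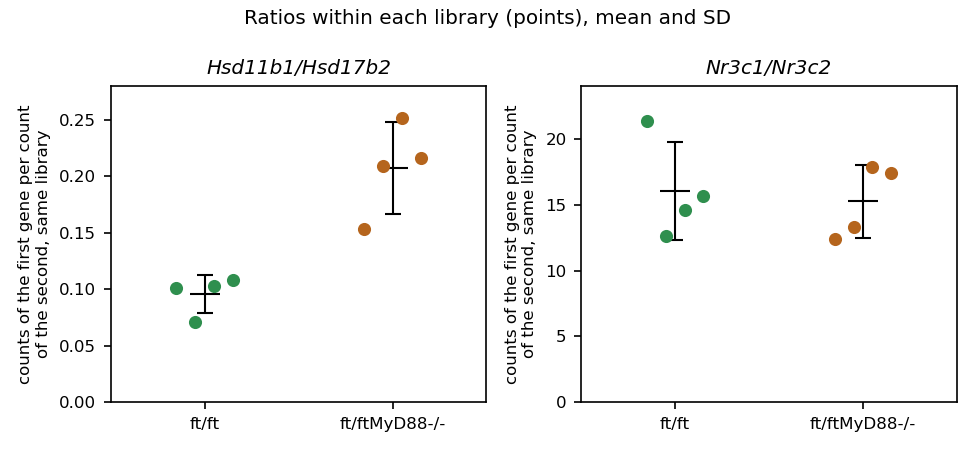
Ratios of counts between gene pairs within each of the 4 ft/ft (green) and 4 ft/ftMyD88-/- (brown) libraries, with the mean and SD in black and axes starting at 0. The Hsd11b1 to Hsd17b2 ratio did not overlap between groups (0.0711 to 0.109 against 0.153 to 0.251), whereas the Nr3c1 to Nr3c2 ratios did (12.6 to 21.3 against 12.4 to 17.8).

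The steroid reductases Srd5a1 and Srd5a2 convert testosterone to the more potent dihydrotestosterone. Srd5a1 is the form known from skin and sebaceous gland, and Srd5a2 that of prostate and male genital tissue. Srd5a1 (chr13:69573449-69611442, minus strand) had 1358, 1619, 1075 and 1597 counts in replicates 1 to 4 of ft/ft and 1106, 1476, 1090 and 651 in ft/ftMyD88-/- replicates 1 to 4. These were 58.2, 58.9, 59.96 and 61.2 CPM against 48.5, 54.2, 37.1 and 39.7 CPM. The ft/ft libraries lay close together, and all ft/ftMyD88-/- libraries were below them, with means of 59.6 ± 1.32 and 44.9 ± 7.92 CPM (SD, n = 4 each). The log2 fold change was −0.41 (SE 0.114, 95% interval −0.66 to −0.16, edgeR adjusted p = 0.0221). The call was lost when any of 4 libraries was left out, namely ft/ft replicates 3 and 4 and ft/ftMyD88-/- replicates 3 and 4 (adjusted p up to 0.0806), and with scaling by library size alone (0.152). Per 1000 CPM of sebocyte markers, Srd5a1 ranged from 2.39 to 2.61 CPM in ft/ft and from 2.37 to 2.89 CPM in ft/ftMyD88-/-, and the ranges overlapped (log2 difference 0.10, exact two-sided permutation p = 0.200). Of its exon bases, 16.4% overlap the same-strand gene Gm17108, which had no row of its own in the table. Its closest profiles were Borcs5 (r = 0.981), Pctp (0.974) and Elovl1 (0.969), the last a fatty acid elongase.

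Srd5a2 (chr17:74016955-74047916, minus strand) was close to the detection limit. Among the ft/ft libraries only replicate 2 had a count (1), while ft/ftMyD88-/- replicates 1 to 4 had 9, 1, 3 and 5, and the gene passed the filter of 10 counts through the latter group. The 18 counts in ft/ftMyD88-/- against 1 in ft/ft gave a ratio of 17.8, with an exact 95% interval of 2.81 to 742 that covers counting error only. Fitted across genes, the log2 fold change was 3.68 (SE 1.11, edgeR adjusted p = 0.0307). In limma voom it did not pass (adjusted p = 0.0625), nor in edgeR without any 1 of 5 libraries (ft/ft replicates 1, 3 and 4, ft/ftMyD88-/- replicates 1 and 4, adjusted p up to 0.0859). Per library the log2 ratio of Srd5a1 to Srd5a2 counts was 11.05 ± 0.690 in ft/ft and 7.99 ± 1.46 in ft/ftMyD88-/- (SD, n = 4 each, 0.5 added to each count). The difference of −3.05 depends on the added value, since the ft/ft counts of Srd5a2 were 0 or 1, and it was −2.40 with 1 added, so it is given as a description. Srd5a1 thus had nearly all counts of this gene pair in every library. Of the exon bases of Srd5a2, 8.97% overlap another gene on the same strand. Egr1 (r = 0.992), Srms (0.987) and Krtap24-1 (0.982) had the most similar profiles, which for so few counts rests mainly on the libraries with any.

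**Figure D3:**
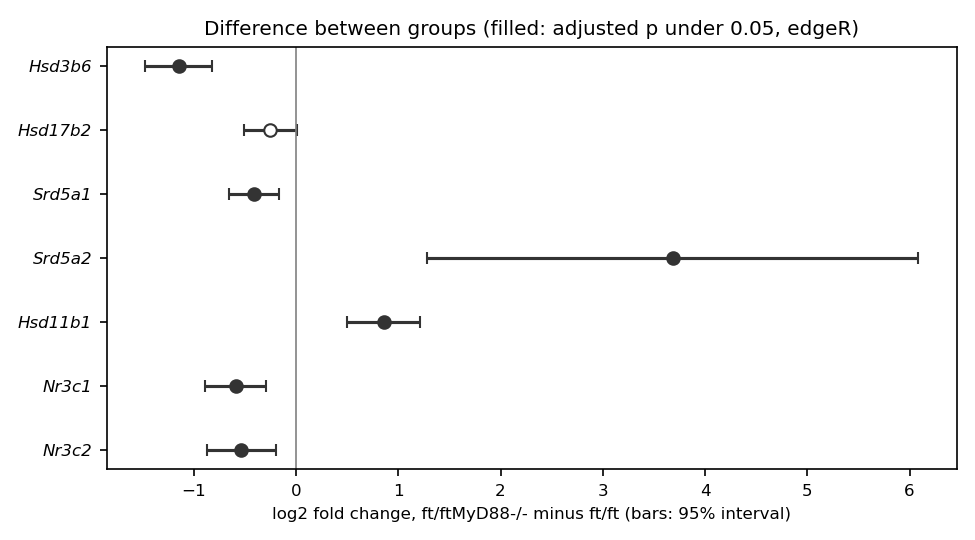
Log2 fold change of the 7 tested genes, ft/ftMyD88-/- minus ft/ft, with 95% intervals from the edgeR fit, filled where the adjusted p was under 0.05. The intervals of Hsd3b6, Srd5a1, Nr3c1 and Nr3c2 lay below 0 and those of Hsd11b1 and Srd5a2 above 0, with Srd5a2 the least precise, and that of Hsd17b2 (−0.51 to 0.01) included 0.

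Nr3c1 encodes the glucocorticoid receptor, and Nr3c2 the mineralocorticoid receptor, which binds corticosterone as well as aldosterone. Both fell. Nr3c1, on chromosome 18, had 4709, 4462, 3457 and 4983 counts in replicates 1 to 4 of ft/ft and 2395, 3302, 4795 and 1761 in ft/ftMyD88-/- replicates 1 to 4. These were 202, 162, 193 and 191 CPM against 105, 121, 163 and 107 CPM. Replicate 3 of ft/ftMyD88-/- (163.1 CPM) was just above replicate 2 of ft/ft (162.3 CPM), and the other 3 were below all ft/ft libraries. The means were 187 ± 17.1 and 124 ± 26.9 CPM (SD, n = 4 each), and the log2 fold change was −0.59 (SE 0.136, 95% interval −0.88 to −0.29, edgeR adjusted p = 0.00880), and the call held without any 1 library but not with scaling by library size alone (adjusted p = 0.0509). Relative to sebocyte markers the log2 difference was −0.09 (exact two-sided permutation p = 0.657), and relative to fibroblast markers it was 0.53 (p = 0.0857, exact permutation). Fam46a (r = 0.993), Dnajc27 (0.990) and Maob (0.989) were most similar to it.

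Nr3c2 (chr8:76899442-77245012, plus strand) had 221, 354, 237 and 319 counts in replicates 1 to 4 of ft/ft and 193, 248, 269 and 101 in ft/ftMyD88-/- replicates 1 to 4. This was 9.47, 12.9, 13.2 and 12.2 CPM against 8.46, 9.11, 9.15 and 6.16 CPM. No ft/ftMyD88-/- library reached the lowest ft/ft library, replicate 1. Means were 11.9 ± 1.70 and 8.22 ± 1.41 CPM (SD, n = 4 each), with a log2 fold change of −0.53 (SE 0.155, 95% interval −0.87 to −0.20, edgeR adjusted p = 0.0266). The call was lost without ft/ft replicate 2, 3 or 4 or ft/ftMyD88-/- replicate 4 (adjusted p up to 0.0747), and with scaling by library size alone (0.124). The opposite-strand gene Gm10649 overlaps 3.82% of its exon bases, and without strand information reads there cannot be told apart. Relative to sebocyte markers, Nr3c2 differed by −0.02 on the log2 scale (exact permutation p = 0.914), and relative to fibroblast markers by 0.59 (exact permutation p = 0.0286, 0.0857 adjusted over the 12 ratios). Its closest profiles were Nfic (r = 0.983), Pacs1 (0.982) and Tspyl2 (0.982). The ratio of Nr3c1 to Nr3c2 counts was 12.6 to 21.3 in ft/ft and 12.4 to 17.8 in ft/ftMyD88-/-, a log2 difference of −0.06 (exact two-sided permutation p = 0.743) with overlapping ranges.

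Compared per length, with CPM divided by kilobases of exon, the genes fell into a high and a low set. Division by length presumes that reads cover whole transcripts, and the protocol of these libraries is not settled, as described under the processing. In ft/ft skin the mean levels were 37.2 ± 3.02 for Hsd17b2, 34.2 ± 4.39 for Hsd3b6, 24.3 ± 2.23 for Nr3c1 and 20.5 ± 0.455 for Srd5a1 (CPM per kilobase, SD, n = 4). Hsd17b2 and Hsd3b6 overlapped, as did the low pair Nr3c2 (1.85 ± 0.263) and Hsd11b1 (1.60 ± 0.212), whereas the other neighbours among these 6 genes did not. Below them, Hsd3b1 and Srd5a2 were at 0.0109 and 0.00566 CPM per kilobase, at the detection limit. In ft/ftMyD88-/- skin Hsd17b2 stood first at 31.2 ± 5.47, and Nr3c1 (16.2 ± 3.51), Hsd3b6 (15.4 ± 3.28) and Srd5a1 (15.4 ± 2.72) overlapped one another. There Hsd11b1 (2.90 ± 0.589) stood above Nr3c2 (1.27 ± 0.218). The order depends on the length used, and with coding length only 2 of the 8 genes kept their rank in ft/ft. Those 2 were Hsd3b1 and Srd5a2 at the detection limit, and each of the other 6 genes changed rank. Hsd11b1 was above Nr3c2 in ft/ft too with coding length (7.29 against 4.05) and with the longest transcript (3.44 against 2.02).

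**Figure D4:**
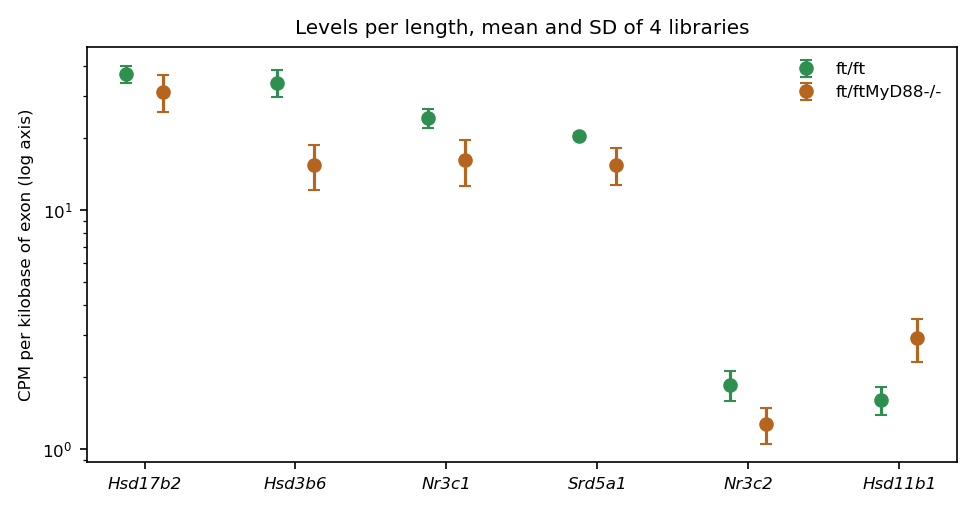
Mean levels with SD, in CPM per kilobase of exon on a log axis, of the 6 genes above the detection limit in ft/ft (green) and ft/ftMyD88-/- (brown) libraries (n = 4 each). Hsd17b2, Hsd3b6, Nr3c1 and Srd5a1 lay above 10 CPM per kilobase in both groups and Nr3c2 and Hsd11b1 below 5. Hsd11b1 was the lower of these in ft/ft, with this length only, and the higher in ft/ftMyD88-/-.

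Within the groups, Hsd3b6, Hsd17b2 and Srd5a1 varied together. The Pearson correlation of their deviations from the group means over the 8 libraries was 0.89 for Hsd3b6 and Hsd17b2, 0.85 for Hsd3b6 and Srd5a1, and 0.81 for Hsd17b2 and Srd5a1. For Nr3c1 it was −0.74 with Hsd3b6 and −0.67 with Hsd17b2. These libraries share tissue makeup and depth, and the values are a description.

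The surrounding pathway was read from 8 fixed lists with 97 genes, of which 79 were tested, 10 rose and 13 fell. The share called is to be read against the 23.3% of all tested genes (10.9% higher and 12.3% lower), here and in each of the lists. Among 17 tested other hydroxysteroid and reductase enzymes, 2 rose, 6 fell and 9 did not pass (median log2 fold change −0.39, all genes 0.013). Hsd17b4, a peroxisomal enzyme, fell from 302 ± 6.26 to 202 ± 15.8 CPM (log2 fold change −0.58, edgeR adjusted p = 0.000715), and Hsd17b7, which also serves cholesterol synthesis, from 253 ± 17.2 to 182 ± 20.04 CPM (−0.48, adjusted p = 0.00470). The lipid droplet protein Hsd17b13 fell from 2.09 ± 0.735 to 0.320 ± 0.181 CPM (−2.65, adjusted p = 0.000756). Akr1c14, a reductase of dihydrotestosterone and progesterone metabolites, rose from 5.57 ± 1.71 to 17.0 ± 4.98 CPM (1.62, adjusted p = 0.00223). Named after their values were seen, the remaining calls were Akr1d1 (3.51), Hsd17b11 (−0.44), Hsd17b12 (−0.44) and Akr1c19 (−2.44, 18 against 3 counts). Akr1c19 passed the filter on low counts only through ft/ft, the group where it was higher. Of those that did not pass, Hsd17b10 had a log2 fold change of −0.16 and Akr1c18, which inactivates progesterone, 0.87 (adjusted p = 0.0510, and past the threshold in 7 of 15 alternatives). Akr1c genes are near copies in 1 cluster, so reads may be split between them.

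Among 11 tested genes of cholesterol delivery and the steroidogenic P450 system, 2 rose, 1 fell and 8 did not pass (27.3% called, against 23.3% of all genes, median 0.05). Cyp17a1, the enzyme that turns progestogens into androgen precursors, rose from 4.88 ± 0.731 to 22.4 ± 5.94 CPM (SD, n = 4 each), and the log2 fold change was 2.20 (SE 0.189, edgeR adjusted p = 2.8e-05). All ft/ftMyD88-/- libraries (15.8 to 30.2 CPM) were above all ft/ft libraries (4.18 to 5.83 CPM). Cyp7b1, an oxysterol hydroxylase, rose from 3.196 ± 0.419 to 8.02 ± 3.21 CPM (1.33, adjusted p = 0.00386), and Por, the reductase that supplies electrons to microsomal P450 enzymes, fell from 315 ± 23.7 to 210 ± 19.5 CPM (−0.59, adjusted p = 0.00137). Cyb5a (−0.04) and Tspo (0.28) did not pass.

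Of 8 sulfation and desulfation genes, 1 rose, 2 fell and 5 did not pass (37.5% called, against 23.3% of all genes, median −0.28). Sult1e1, the oestrogen sulfotransferase, was counted 40 times in ft/ft and 2 times in ft/ftMyD88-/-. This was a ratio of 20.2 (exact 95% interval 5.24 to 173, counting error only, edgeR adjusted p = 0.00727). Sult1e1 passed the filter on low counts only through ft/ft, the group where it was higher, so its call is a description. It too was displayed by the study from these libraries. Papss1, which makes the sulfate donor, fell from 162 ± 7.01 to 124 ± 2.01 CPM (−0.39, adjusted p = 0.00357). Slc10a6, a transporter of sulfated steroids, rose from 10.2 ± 1.02 to 14.6 ± 1.67 CPM (0.51, adjusted p = 0.0115). Sult2b1 (0.29) and Sumf1 (−0.17) did not pass. In the list of local CRH, POMC and steroidogenic regulators, 1 of 5 tested genes fell and 4 did not pass (median −0.52). The gene that fell was Crhr2, a receptor of the CRH and urocortin family, from 6.66 ± 1.46 to 3.35 ± 1.04 CPM (−0.97, adjusted p = 0.0103), and Mc2r (−0.33) and Nr5a2 (−0.59) did not pass.

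The oestrogen and progesterone receptor genes described here, Esr1, Esr2, Gper1 and Pgr, gave 0 calls of 4 in edgeR, DESeq2 and limma voom, with 0 of 4 at an unadjusted edgeR p under 0.05 (median log2 fold change −0.07). Esr2 and Pgr were named after their values were seen. For Esr1 the values were 12.4 ± 0.778 and 13.3 ± 6.06 CPM (0.11), and Gper1 had a log2 fold change of −0.24. Esr2, with 25 counts in ft/ft and 12 in ft/ftMyD88-/-, had a log2 fold change of −1.04 (edgeR adjusted p = 0.175), and Pgr one of 0.22.

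Among 13 receptor chaperones and coregulators, 3 rose and 10 did not pass (23.1% called, close to the 23.3% of all genes, median 0.04). Fkbp5, a co-chaperone of the glucocorticoid receptor that the receptor itself induces, rose from 48.1 ± 3.58 to 86.8 ± 22.1 CPM (0.85, edgeR adjusted p = 0.00384). Ptges3, the p23 co-chaperone, rose from 107 ± 11.8 to 151 ± 19.8 CPM (0.50, adjusted p = 0.00718) and Hspa8 from 671 ± 15.5 to 862 ± 57.1 CPM (0.36, adjusted p = 0.0112), both genes with processed copies elsewhere in the genome that can share reads. Hsp90ab1 (−0.22) and Fkbp4 (0.04) did not pass.

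Genes known to respond to the receptors were read from the last pair of lists. Of 17 glucocorticoid-induced genes, 3 rose, 1 fell and 13 did not pass (median 0.08), a share close to the 23.3% of all genes. Zbtb16, a transcription factor, rose from 9.86 ± 1.83 to 42.6 ± 14.97 CPM (2.11, edgeR adjusted p = 0.00135), and the metallothionein Mt1 from 55.6 ± 2.72 to 83.3 ± 9.69 CPM (0.58, adjusted p = 0.00125). Pdk4, a kinase that limits pyruvate oxidation, fell from 87.0 ± 15.3 to 40.8 ± 10.1 CPM (−1.09, adjusted p = 0.00204), and the abundant Cdkn1a (−0.18) and Sgk1 (0.13) did not pass. Fkbp5 belongs to both this list and that of the chaperones. Among 6 genes of mineralocorticoid-linked sodium transport, 2 fell and 4 did not pass (33.3% called, against 23.3% of all genes and 12.3% lower, median 0.05). Nedd4l, the ubiquitin ligase that removes sodium channels, fell from 31.6 ± 4.69 to 20.2 ± 1.44 CPM (−0.65, adjusted p = 0.00220), and Scnn1a, a channel subunit, from 57.1 ± 7.25 to 40.8 ± 6.99 CPM (−0.48, adjusted p = 0.0162). The call for Scnn1a was lost without ft/ftMyD88-/- replicate 4 (edgeR adjusted p = 0.0572). The sodium pump subunit gene Atp1b1 (0.19) and the kinase gene Sgk1 (0.13), which is in both lists, did not pass.

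**Figure D5:**
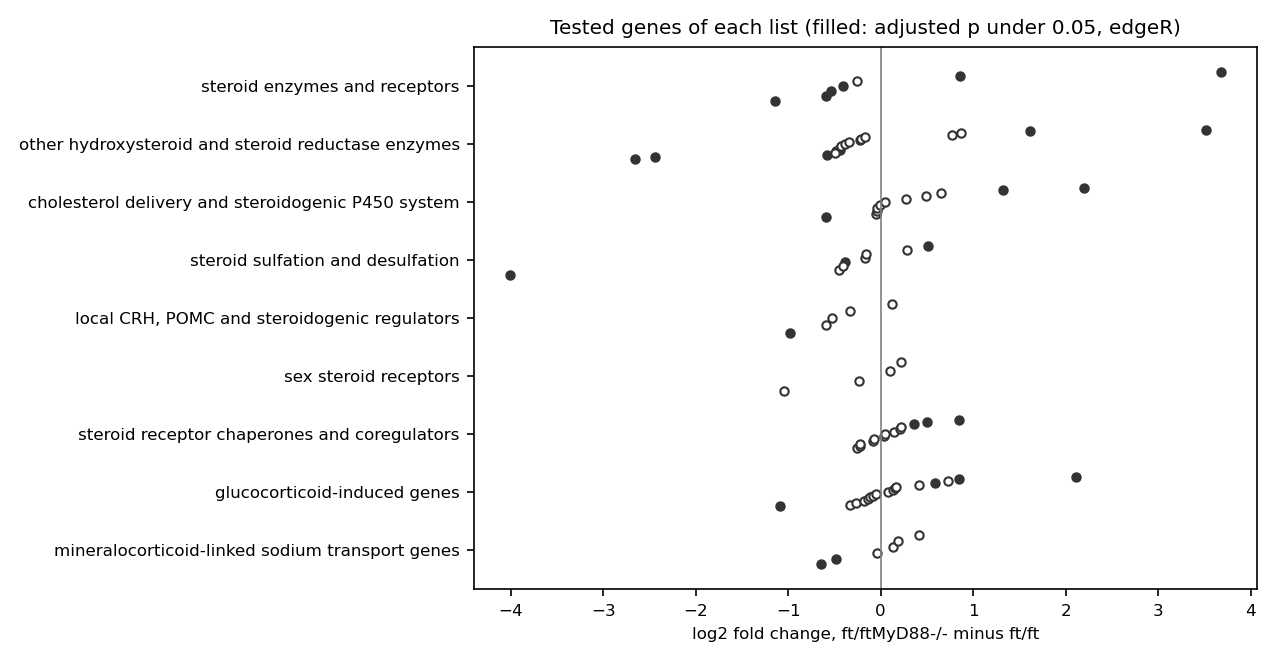
Log2 fold change (horizontal axis, ft/ftMyD88-/- minus ft/ft) of each tested gene in the set of steroid enzymes and receptors and in the 8 pathway lists, filled where the edgeR adjusted p was under 0.05. Calls lay on both sides of 0 in the lists of hydroxysteroid enzymes, P450 system, sulfation and glucocorticoid-induced genes. Cyp17a1 at 2.20, Zbtb16 at 2.11, Hsd17b13 at −2.65 and Sult1e1 at −4.01 were among the extremes, Sult1e1 having passed the filter only through ft/ft.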

How the data were processed

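RNA-seq counts were available for 4 ft/ft and 4 ft/ftMyD88-/- libraries, grouped by their labels. The authors' table holds whole, unnormalized counts per gene, as deposited. Per the study's methods, polyA-selected libraries were read as 50-base single ends, mapped to GRCm38.p6 (HISAT, tophat2) and assigned to genes by HTSeq, whereas the labels of the same samples name total RNA, a fixed-tissue protocol and Cell Ranger with GRCm38. The counts do not settle which applies. Depth was 15802957 to 29255129 counts per library, so a count of 0 allows up to 0.102 to 0.183 CPM (3 counts, counting error only).

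From the counts, genes with at least 10 counts in total were tested with edgeR 4.0.16 (TMM scaling, robust quasi-likelihood test, two-sided, R 4.3.3), with Benjamini-Hochberg adjustment over all 20454 genes tested. CPM values use TMM-scaled totals. Ratios within libraries were compared by exact permutation (scipy 1.17.1), and intervals of count ratios are exact at 95%. Gene positions, exon lengths and shared 50-base words came from GENCODE M21 (GRCm38). In simulated counts for this comparison (20189 genes tested, 200 changed by a fold of 2), 170 changed and 8 unchanged genes were called. The changed genes were drawn from those of higher counts. The simulation therefore does not cover genes near the filter, such as Srd5a2 and Sult1e1, or smaller folds. Alternatives were DESeq2 1.42.0, limma 3.58.1 voom, other scalings and filters, a replicate block and leaving out each library. No libraries agreed within counting noise (smallest chi-square 15.1 per degree of freedom).

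The genes and lists were chosen with earlier results of these data known, and some listed genes are not reported here. Named genes were the set itself, and per pathway list up to 4 called genes with the smallest p and up to 2 uncalled genes of the highest mean CPM. For each tested gene of the set, the 3 genes (mean CPM of at least 5) with the highest Pearson r were named as well.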

Additional observations from a re-analysis of the deposited data

Results flagged for a closer look

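In 88 groups of 4 libraries, 6 had a single library far from the other 3 (by Dixon's criterion on the gap to the nearest value), and chance alone flags about 1 group in 20. The log2 ratio of Hsd11b1 to Hsd17b2 counts was −3.81 in ft/ft replicate 2 against −3.29 to −3.20 in the other ft/ft libraries. Srd5a2 was at 0.0364 CPM, a single count, in ft/ft replicate 2 and at 0 in the others, and Sult1e1 at 0.0735 CPM, from 2 counts, in ft/ftMyD88-/- replicate 2 and at 0 in the others. Hsp90ab1 reached 2172 CPM in ft/ft replicate 2, with the others at 1963 to 1994 CPM. In ft/ftMyD88-/-, Hspa8 reached 948 CPM in replicate 4 against 830 to 840 CPM, and Nr5a2 was at 1.12 CPM in replicate 3 against 0.438 to 0.488 CPM.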

How the results depend on the processing

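Hsd3b6 and Hsd11b1 kept their direction and passed the test in all 15 alternatives (log2 fold change −1.25 to −0.97 and 0.74 to 1.03). Scaling by library size alone moved the median of all genes up by 0.177 on the log2 scale. It left 3 of the steroid genes called, 1 of them lower, with 4638 genes higher and 1326 lower over the table (2239 and 2525 with TMM) and 22 pathway genes higher. In the set, calls were lost for Srd5a1 (adjusted p = 0.152), Nr3c1 (0.0509) and Nr3c2 (0.124), by edgeR. The uncalled Hsd17b10 (0.0117), Cyb5a (0.13) and Sumf1 (0.0065) changed sign. With voom, and with the stricter filterByExpr filter, which removed Srd5a2, 1 gene of the set was higher. Leaving out 1 library gave 3 to 7 calls in the set (1 to 2 higher, 2 to 5 lower) and 1464 to 2260 higher genes over the table. Signs turned for the uncalled Cyb5a (−0.11 to 0.0252), Fkbp4 (−0.0011 to 0.0692), Gper1 (−0.43 to 0.0152) and Esr1 (−0.24 to 0.27), and for the Nr3c1 to Nr3c2 ratio (−0.17 to 0.0812). The Srd5a1 to Srd5a2 difference then ranged from −3.70 to −2.68 and that of Hsd11b1 to Hsd17b2 from 0.97 to 1.24, the latter with an exact p of 0.0571, the smallest that 3 against 4 allows.

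Same-numbered replicates did not deviate together (r −0.31 to 0.06, and 1 of 4 ft/ft and 0 of 4 ft/ftMyD88-/- libraries correlated best with their own number). With the replicate block, 6 genes of the set and 4039 of all genes were called, and the paired ratio differences, −3.05 for Srd5a1 to Srd5a2 and 1.10 for Hsd11b1 to Hsd17b2, were as without it, the latter with an exact p of 0.125, the smallest for 4 pairs. Relative to summed markers, chosen after seeing the data, the smallest adjusted p over the 12 ratios was 0.0857. The direction turned for Srd5a1 (0.10 for sebocyte and 0.71 for fibroblast markers), Hsd17b2 (0.26 and 0.88), Nr3c1 (0.53, fibroblast) and Nr3c2 (0.59, fibroblast). Both sums were lower in ft/ftMyD88-/-, so small falls turn by the division alone. With coding length, 2 of the 8 genes kept their rank in ft/ft, namely Hsd3b1 and Srd5a2 at the detection limit. Depth limits what can be said of Srd5a2 and Hsd3b1.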
